A study of Mus musculus with 4 samples.

Results

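The regions described here were bound by the transcription factor OTX2 in both primitive streak (PS) cells and definitive endoderm (DE) cells of the mouse and lay at the ends of genes. They were taken from the authors' list of regions found only in PS and DE, here called PS and DE regions. A region was included where its midpoint lay no more than 1 kb from an end of a protein-coding gene in the RefSeq annotation of GRCm38.p6, the assembly also called mm10. The rule found 650 regions, which are 10.6% of the 6157 regions of that list (95% Wilson interval 9.81 to 11.3), among 39615 regions in all 4 deposited lists. For comparison, 4466 regions of the list bound in DE alone (DE only), 127 of the list bound in PS alone (PS only) and 33 of the list bound in a stage written EPI and in PS met the same rule. Regions bound in EPI, PS and DE together, in EPI alone, or in EPI and DE have no list here. A gene without a listed region may therefore still be bound.

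Binding was located by CUT&RUN, in which an antibody brings a nuclease to a protein on chromatin and the released DNA is sequenced. Epiblast stem cells (EpiSCs), the starting cells, were kept in N2B27 with Activin A, FGF2 and NVP. They became PS cells in CDM with 40 ng/ml of Activin A plus 3 uM of the WNT activator CHIR over 16 h. DE cells followed when Activin A was raised to 100 ng/ml and the BMP receptor inhibitor LDN added at 100 nM over the next 24 h, and were sorted live. The 4 libraries with labels here are 3 PS libraries made with an anti-HA antibody, from 3 separately named lines labelled OTX2-dTAG-EGFP, and 1 PS library made with control IgG from a line that also gave an anti-HA library. All 4 share the edited OTX2 and a BL6/129 hybrid genotype. No EpiSC or DE library was analysed here. Each library came from 500000 cells. The lists give positions only, with no height and no value per library, so depth and the spread between libraries are unknown. The labelled cell types could not be checked against markers. The tests below compare regions or promoters, which are not biological replicates. Neighbouring regions are not independent, so the p-values are too small.

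OTX2 is a homeodomain protein of the bicoid class, which binds the DNA letters TAATCC, and is known for its roles in the epiblast, the anterior endoderm and the head of the embryo. Definitive endoderm arises from the anterior primitive streak under NODAL and WNT signals and goes on to form the lining of the gut. A gene's start is where RNA polymerase begins transcription, and the DNA just before it, the promoter, is often rich in the dinucleotide CpG.

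Regions at genes of endoderm, streak and their signals came from the lists, and part of each could be read where it overlapped a RefSeq promoter (250 bases before to 50 after a gene's start, GRCm38.p6). The stretches below are the bases of a PS and DE region that lie before the gene, outside its RefSeq span, 5′ to 3′ on the gene's strand. They are shown because these genes are used below as the examples of endoderm loci. Capitals mark TAAT, the core shared by many homeodomain proteins, on either strand, a choice made after the sequences were seen. Cer1 encodes a secreted antagonist of NODAL, BMP and WNT (chr4:82885180-82885374, minus strand), Gsc a homeodomain factor of the anterior streak (chr12:104473360-104473486, minus strand), Frzb a secreted WNT antagonist (chr2:80447402-80447501, minus strand), Cfc1 a co-receptor for NODAL (chr1:34535560-34535647, plus strand) and Krt8 a keratin of simple epithelia (chr15:102004344-102004592, minus strand).
Cer1: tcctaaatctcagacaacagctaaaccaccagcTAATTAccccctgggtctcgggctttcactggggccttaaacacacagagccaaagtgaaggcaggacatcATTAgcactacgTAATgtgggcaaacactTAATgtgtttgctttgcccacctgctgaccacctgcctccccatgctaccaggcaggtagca
Gsc: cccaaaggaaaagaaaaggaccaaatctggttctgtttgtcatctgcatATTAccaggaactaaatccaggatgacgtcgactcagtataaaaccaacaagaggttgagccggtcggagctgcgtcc
Frzb: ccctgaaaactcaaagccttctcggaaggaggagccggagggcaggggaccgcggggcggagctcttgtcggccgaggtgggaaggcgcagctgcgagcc
Cfc1: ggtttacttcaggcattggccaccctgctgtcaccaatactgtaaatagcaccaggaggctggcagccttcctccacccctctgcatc
Krt8: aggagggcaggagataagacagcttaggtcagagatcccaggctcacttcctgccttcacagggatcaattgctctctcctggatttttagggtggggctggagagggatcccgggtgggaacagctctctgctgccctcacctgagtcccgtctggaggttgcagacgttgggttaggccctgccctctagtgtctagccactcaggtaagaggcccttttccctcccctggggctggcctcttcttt
None of these 5 stretches held TAATCC or its complement GGATTA. The Cer1 stretch held 5 TAAT sites counted on both strands, 2 of them overlapping in TAATTA, and the Gsc stretch 1, while the stretches of Frzb, Cfc1 and Krt8 held 0. Absence of the letters from these windows says nothing about binding, which was given by the regions themselves.

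Of the 286 regions with at least 30 bases before every start of the gene in the promoter table, 16 held the full letters TAATCC. In 11 of those 16 the stretch also lay outside the RefSeq gene span, and 5 of the 11 are shown next, with TAATCC or GGATTA in capitals. They were picked after they were seen, to show a pair of sites, a core followed by TATAAAG, and genes with known roles in signalling, chromatin or translation. Tril encodes a Toll-like receptor partner (chr6:53820936-53821026, minus strand), Bspry a B-box and SPRY domain protein (chr4:62479885-62480001, plus strand), L3mbtl2 a Polycomb group protein (chr15:81663778-81663888, plus strand), Eif3d a translation initiation factor subunit (chr15:77970883-77970992, minus strand) and Ppp2ca a catalytic subunit of the phosphatase PP2A (chr11:52098574-52098695, plus strand).
Tril: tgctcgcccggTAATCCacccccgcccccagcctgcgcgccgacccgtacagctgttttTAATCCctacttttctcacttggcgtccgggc
Bspry: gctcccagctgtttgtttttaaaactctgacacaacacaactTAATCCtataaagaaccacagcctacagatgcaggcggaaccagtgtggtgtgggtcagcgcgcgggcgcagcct
L3mbtl2: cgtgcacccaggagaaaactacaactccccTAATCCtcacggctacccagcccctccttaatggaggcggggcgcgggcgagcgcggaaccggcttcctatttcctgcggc
Eif3d: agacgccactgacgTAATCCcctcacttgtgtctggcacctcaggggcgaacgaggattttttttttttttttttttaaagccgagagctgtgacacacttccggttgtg
Ppp2ca: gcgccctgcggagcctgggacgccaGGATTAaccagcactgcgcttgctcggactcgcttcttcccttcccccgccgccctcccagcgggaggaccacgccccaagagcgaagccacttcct
Tril held 2 full sites, and Gtf2ird1, whose stretch lay inside its gene span and is not shown, also held 2. The other 14 stretches held 1 each. In Bspry the core was followed directly by the letters TATAAAG, as it was in Samd11, whose stretch lay inside its gene span and is not shown.

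Where strand was known, most regions were nearest to a gene start and not to the far end, the start being the outermost one of the gene's RefSeq span. Strand was known for the nearest gene of 532 of the 650 regions. Among these, 464 (87.2%, 95% Wilson interval 84.1 to 89.8) were nearest to a gene start and 68 to the far end of a gene. Among DE only regions at gene ends the start share was 88.6% (87.5 to 89.6), and the difference did not pass the threshold of 0.05 (ratio 0.984, adjusted Fisher's exact p = 0.484). Of the 464, 144 (31.0%) had their midpoint inside the gene. The midpoints at starts lay at a median of -60.8 bp from the start (quartiles -182.2 and 36.9), against -33.2 bp (-108 and 54) for DE only. A distance of at most 250 bp was seen for 300 of the 464 PS and DE regions (64.7%) and for 70.6% of those in DE only. The bin from 300 to 200 bp upstream of a start held 6.02% of PS and DE regions with known strand and 2.61% of those in DE only. Both patterns of distance were seen only after the values were known and were not tested.

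**Figure D1:**
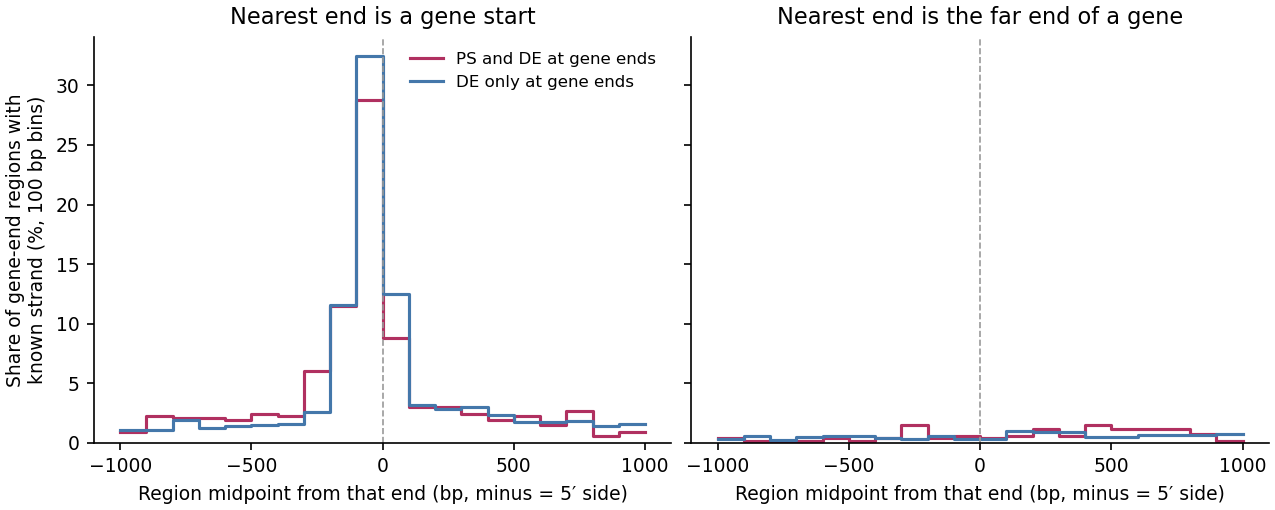
Distance of region midpoints from the nearest gene end in 100 bp bins, as a percentage of the gene-end regions with known strand, with PS and DE in red and DE only in blue. Minus is the 5′ side of that end; both lists peak in the 100 bp before a gene start, and the far ends hold few regions in either.

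A midpoint inside the gene was less frequent for PS and DE regions than for DE only. It was found for 199 of 650 (30.6%, 27.2 to 34.3) against 1624 of 4466 in DE only (36.4%, 35.0 to 37.8), the ratio being 0.842 (adjusted Fisher's exact p = 0.0102). The PS only regions at gene ends had 30.7%. The difference from DE only passed neither with a window of 500 bp (ratio 0.870, adjusted Fisher's exact p = 0.112) nor with 2.5 kb (ratio 0.932, adjusted Fisher's exact p = 0.143). It also missed the threshold among regions of at least 150 bp (ratio 0.876, adjusted Fisher's exact p = 0.543) and among regions nearest to a start (ratio 0.856, adjusted Fisher's exact p = 0.0684).

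PS and DE regions were narrower at gene ends than elsewhere. Their median width was 108 bp at gene ends (quartiles 85 and 144, range 4 to 427), against 125 bp for the 5507 other PS and DE regions (93 and 178). A width of at least 200 bp was reached by 59 of the 650 (9.08%, 7.1 to 11.5) and by 999 of the 5507 others (18.1%, 17.1 to 19.2), the ratio being 0.5 (adjusted Fisher's exact p = 5.61e-09). In DE only, for comparison and without a test, 13.5% of gene-end regions and 17.1% of the others were that wide. Of the 650, 29 were under 50 bp wide, as were 157 of the 5507 other PS and DE regions. Among the other lists, EPI and PS held 4 gene-end regions under 50 bp of 33, and DE only and PS only held 0. The smallest gene-end width was 62 bp in DE only and 77 bp in PS only, against 4 bp in PS and DE. How the edges of regions were set in each list is not stated, so width may not be the same measure across lists. With regions under 50 bp left out, a setting added later, the ratio was 0.509 (adjusted Fisher's exact p = 1.54e-08).

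**Figure D2:**
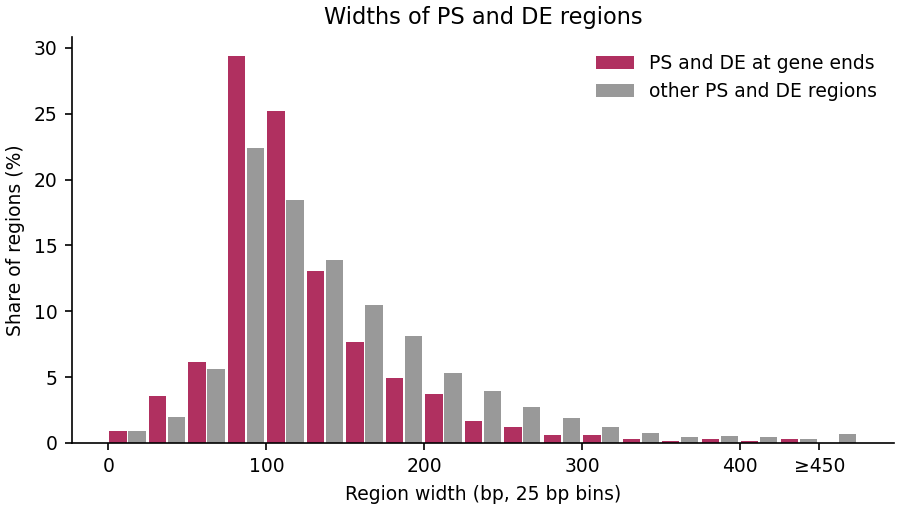
Share of regions per 25 bp width bin for PS and DE regions at gene ends (red) and the other PS and DE regions (grey); the last pair of bars holds all regions of at least 450 bp. The red bars exceed the grey ones between 25 and 125 bp and lie below them from 125 to 425 bp.

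The few wide regions were spread differently over starts and far ends, a pattern outside the planned comparisons that was not tested. Of the 464 PS and DE regions at starts, 39 (8.41%) were at least 200 bp wide, and of the 68 at far ends, 12 (17.6%). DE only had the opposite order, with 14.2% at starts and 8.76% at far ends. A cut-off in width may not select alike in the 2 lists, whose smallest regions differ. Among regions of at least 150 bp the start share was 79.7% in PS and DE and 92.4% in DE only (ratio 0.862, adjusted Fisher's exact p = 1.39e-04), whereas over all widths the difference in start share did not pass. It passed under no other alternative setting either. The 5 widest regions were 427 bp at the start of Ripply1, 426 bp at Syne3, 400 bp at Gsc, 389 bp beyond the far end of Mtch1 and 381 bp at Ppp1r16b. Ripply1 encodes a repressor that limits T-box factors during somite formation, and Syne3 a protein of the nuclear envelope. Their midpoints lay 334 bp (Ripply1), 764.5 bp (Syne3), 323.5 bp (Gsc), 708 bp (Mtch1) and 427 bp (Ppp1r16b) outside the gene. At the other extreme, the midpoint closest to a start was that of Rdh1, a retinol dehydrogenase gene, at 0.5 bp, followed by Pms2, a mismatch repair gene, at 1 bp. Mtr, which encodes methionine synthase, and Ncoa4 followed at 1.5 bp each, and Lrrc20 at 2.5 bp.

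The genes at these regions included a larger share of endoderm and streak genes than of all genes. A PS and DE region lay within 1 kb of an end of 710 genes, 3.24% of the 21887 protein-coding genes. A DE only region lay there for 4577 genes, 20.9%. Both shares are the background for the gene lists, which were chosen with earlier results of these data known, so their counts are descriptions without a test. Of 26 definitive endoderm genes, 7 (26.9%) had a PS and DE region at an end, and 7 had a DE only region. Of 25 primitive streak genes, 5 (20.0%) had a PS and DE region and 6 a DE only region. Of 19 anterior endoderm and foregut genes, 6 (31.6%) had a PS and DE region and 4 a DE only region. These 3 lists overlap, so their shares are not independent, and Gsc and Lhx1 are on all of them. The streak hits Mixl1 and Eomes and the anterior hits Cer1 and Foxa2 were also among the definitive endoderm hits.

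**Figure D3:**
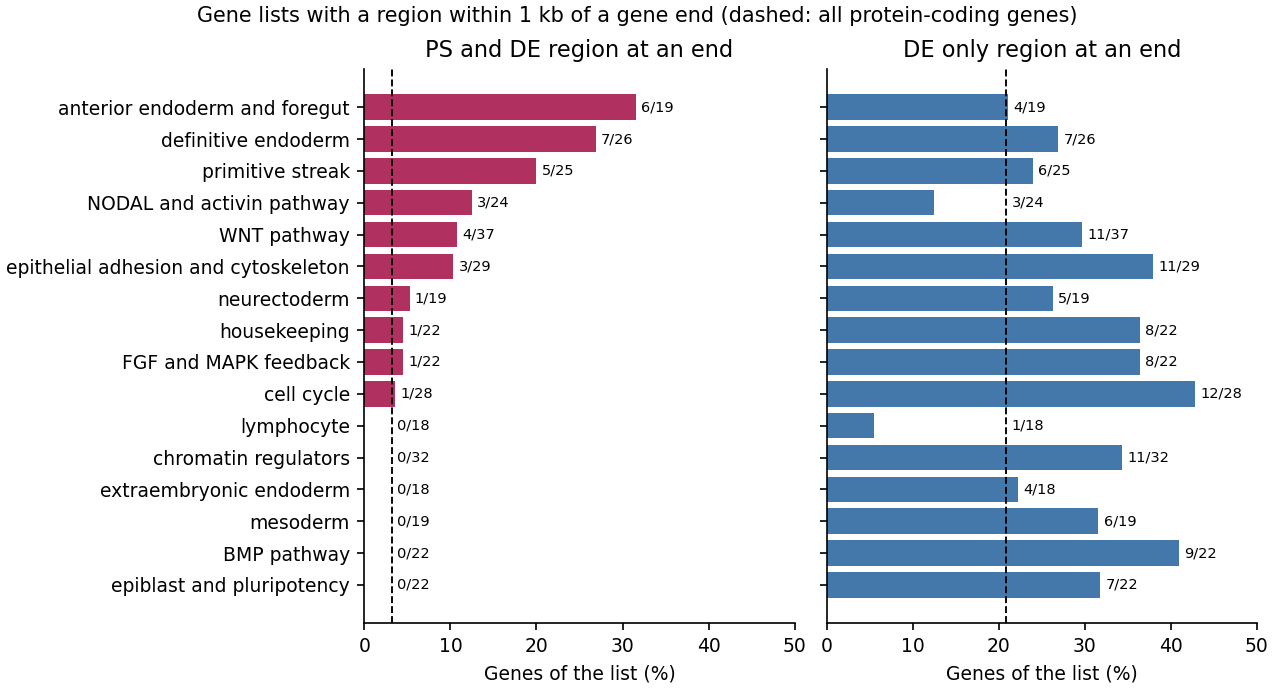
Percentage of genes of each list with a PS and DE region (left, red) or a DE only region (right, blue) within 1 kb of a gene end; counts stand beside the bars and the dashed lines give the share of all protein-coding genes, 3.24% and 20.9%. The anterior endoderm, definitive endoderm and streak lists are highest for PS and DE, whereas the cell cycle and BMP lists are highest for DE only.

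Transcription factor genes of the endoderm and streak were bound at differing distances. At Gsc (chromosome 12, 104471209 to 104473236, minus strand) the region at 104473360 to 104473759 was centred 323.5 bp before the start. At Lhx1, a LIM homeodomain factor of the anterior streak (chromosome 11, 84517975 to 84525534, minus strand), a region of 68 bp at 84526033 to 84526100 was centred 532.5 bp before the start. A DE only region of 302 bp lay closer, centred 98.5 bp before the Lhx1 start. At Foxa2, a forkhead factor that opens chromatin in endoderm (chromosome 2, 148042877 to 148046969, minus strand), the region at 148046349 to 148046447 was inside the gene, 571 bp after the start. Eomes, a T-box factor needed for endoderm (chromosome 9, 118478186 to 118486132, plus strand), had its PS and DE region 430 bp beyond its far end, at 118486473 to 118486651, while a DE only region of 206 bp was centred 78.5 bp before its start and another, of 146 bp, lay inside it near the far end. Mixl1, a homeodomain factor of the streak (chromosome 1, 180693043 to 180697034), had a region of 161 bp centred 508 bp outside the gene, at 180697462 to 180697622. Thus at Eomes and Lhx1 the region nearest the start was DE only, and at Gsc and Foxa2 no DE only region lay within 1 kb of an end.

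Among signalling genes of the same stages, Cer1 and Cfc1 had regions before their starts, while the strand of Lefty1 and Fgf8 was not known. Cer1 (chromosome 4, 82881751 to 82885151, minus strand) had 2 PS and DE regions and 0 DE only regions at its ends: 195 bp wide and centred 126 bp before the start, and 314 bp wide and centred 592.5 bp before it. Cfc1 (chromosome 1, 34535648 to 34544311, plus strand) also had 2, centred 40 and 261 bp before the start, and 0 DE only regions. At Lefty1, which encodes a secreted NODAL inhibitor (chromosome 1, 180935022 to 180938401), a region of 82 bp was centred 166.5 bp outside the gene. These 3 genes were the only ones of 24 NODAL and activin pathway genes with a PS and DE region at an end (12.5%), and another 3 genes of that list had a DE only region there. Fgf8, a growth factor of the streak (chromosome 19, 45736491 to 45742941), had a region of 42 bp centred 822.5 bp outside the gene, and was the only hit among the 22 listed FGF and MAPK feedback genes. That list does not hold every such gene, and Dusp5 and Dusp9, both off it, also had a PS and DE region at an end.

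**Figure D4:**
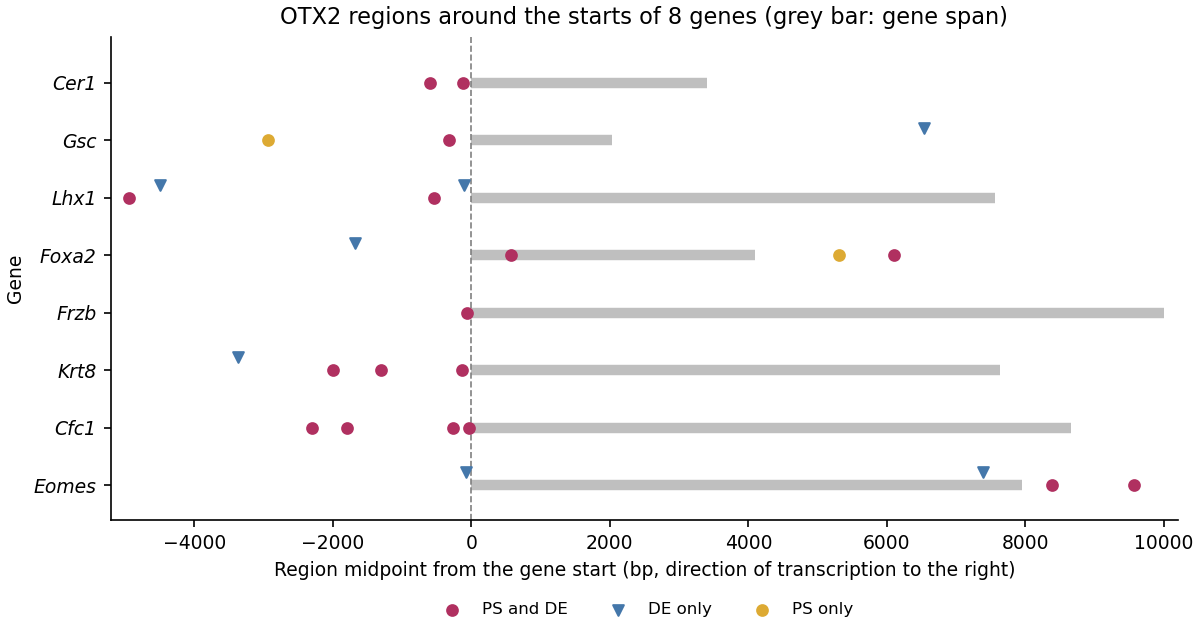
Midpoints of OTX2 regions from 5 kb before to 10 kb after the starts of 8 genes, with transcription to the right and gene spans in grey (Frzb is cut at 10 kb). Red circles are PS and DE, blue triangles DE only and yellow circles PS only; at Cer1, Frzb and Cfc1 only PS and DE regions appear, and at Eomes and Lhx1 a DE only region is the nearest to the start.

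In the WNT pathway, 4 of 37 genes (10.8%) had a PS and DE region at an end, against 11 (29.7%) with a DE only region. Of these 4 hits, 3 were frizzled genes, which encode WNT receptors. The list does not hold every WNT gene, and Wnt16 and Sfrp2, both off it, also had a PS and DE region at an end. The region at Fzd10 was centred 345 bp before the start, that at Fzd5 584 bp before it, and that at Fzd8 749 bp outside the gene. At Frzb (chromosome 2, 80411970 to 80447396, minus strand) the region of 100 bp was centred 55.5 bp before the start. Fzd5 had 1 and Fzd8 had 2 DE only regions at their ends, and Frzb and Fzd10 had 0.

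Genes of adhesion and the cytoskeleton were also among the hits, with 3 of 29 genes (10.3%) of the list named epithelial adhesion and cytoskeleton. At Krt8 (chromosome 15, 101996711 to 102004342, minus strand) a region of 253 bp was centred 128 bp before the start. Vim, which encodes the intermediate filament of mesenchymal cells, and Itga5, the fibronectin receptor subunit, had regions centred 671.5 bp (Vim) and 785.5 bp (Itga5) before the start. A DE only region lay at an end of 11 of the 29 genes, none of which was Krt8, Vim or Itga5.

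Other lists were at or near the background for PS and DE. No PS and DE region lay at an end of the 22 epiblast and pluripotency, 22 BMP pathway, 19 mesoderm, 18 extraembryonic endoderm, 32 chromatin regulator or 18 lymphocyte genes. DE only regions did lie at ends of 7 of the pluripotency genes (31.8%), 9 of the BMP genes (40.9%), 6 of the mesoderm genes (31.6%), 4 of the extraembryonic genes (22.2%), 11 of the chromatin regulators (34.4%) and 1 of the lymphocyte genes (5.56%). The cell cycle list had 1 hit of 28 (Mycn, a MYC family transcription factor gene, with 2 regions of 68 bp each, 442.5 bp inside and 682.5 bp before the start) and 12 DE only hits. The neurectoderm list had 1 hit of 19 (Irx3, an Iroquois homeodomain gene, 393.5 bp before the start) and the housekeeping list 1 of 22 (Gapdh, a glycolytic enzyme gene, 754 bp inside from the start). With a background of 3.24%, lists of this size hold about 1 such gene or none, so a count of 0 does not set them apart. The lists also do not hold every gene of their kind. Kdm4a and L3mbtl2 had PS and DE regions at an end but are not on the chromatin regulator list. Cer1, an antagonist of BMP among others, is not on the BMP list.

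Gene families defined by their symbols are read against the same backgrounds, 3.24% for PS and DE and 20.9% for DE only, and without a test. Of 95 cytoplasmic ribosomal protein genes, 4 (4.21%) had a PS and DE region at an end and 38 (40.0%) a DE only region. The closest were Rps7 at 13 bp and Rpl14 at 66 bp from the start, while those of Rpl22l1 (516.5 bp) and Rpl18 (801.5 bp) were nearest the far end. Of 71 translation factor genes, 1 (Eif3d) had a PS and DE region against 25 with DE only. Zinc finger genes named Zfp were hit in 22 of 397 cases (5.54%) by PS and DE and in 92 (23.2%) by DE only; the closest PS and DE regions were at Zfp174 (5 bp), Zfp12 (7.5 bp) and Zfp51 (13 bp). Solute carrier genes were hit in 10 of 375 cases (2.67%), mitochondrial ribosomal genes in 2 of 78 (2.56%) and proteasome genes in 3 of 51 (5.88%). Rab GTPases had 4 of 69 hits (5.80%), kinesins 2 of 38 (5.26%) and Ube2 genes 3 of 37 (8.11%). Olfactory receptor genes had 2 of 1110 (0.18%), below the background of 3.24%, and the DE only share was also low, at 0.811%. The 19 Sox, 39 Hox and 102 histone genes had 0 hits, the 44 forkhead genes 1 (Foxa2), the 17 T-box genes 1 (Eomes) and the 19 Wnt ligand genes 1 (Wnt16, 45.5 bp from the start).

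Most genes had a single region, and a small number had several. Of the 710 genes, 678 had 1 region at an end, 30 had 2 and 2 had 3. Slc39a2, a zinc transporter gene, had regions centred 191 and 481.5 bp inside from its start and 554 bp inside from its far end. Kdm4a, a histone lysine demethylase gene, had 1 region 377.5 bp inside and 2 regions 475 and 623 bp before its start. Egflam, which encodes the matrix protein pikachurin, had regions 7.5 bp inside and 492.5 bp before its start. Kcnk5, a potassium channel gene, had regions 117 and 426.5 bp before its start, and Prtg, an immunoglobulin family receptor gene of the early embryo, regions 460 and 914.5 bp before its start. Dip2b had both of its regions beyond the far end, at 547 and 898 bp.

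Genes with a PS and DE region at an end had a DE only region there about as often as all genes did. A DE only region lay at an end of 151 of the 710 genes (21.3%), close to the 20.9% of all protein-coding genes, and these 151 were 3.30% of the 4577 genes with a DE only region.

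Regions between a pair of close genes made up a similar share of both lists. Ends of at least 2 genes lay within 1 kb of 94 of the 650 regions (14.5%, 11.97 to 17.4), against 14.3% (13.3 to 15.4) in DE only (ratio 1.01, adjusted Fisher's exact p = 0.905). Of the 94, 43 (45.7%) lay between or at 2 gene starts, 19 at a start and a far end, 7 at 2 far ends, and 25 had a gene of unknown strand. Gin1 and Ppip5k2 shared 2 regions, the nearer to each being 33.5 bp from the Gin1 start and 130.5 bp from the Ppip5k2 start. Aimp2 and Pms2 shared the region whose midpoint was 1 bp from the Pms2 start and 63 bp from the Aimp2 start.

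A DE only region lay within 5 kb of 219 of the 650 regions (33.7%, 30.2 to 37.4), against 32.9% (31.7 to 34.1) of the other PS and DE regions (ratio 1.02, adjusted Fisher's exact p = 0.807). Within 1 kb the shares were 17.4% and 13.6% (ratio 1.27, adjusted Fisher's exact p = 0.021), and within 20 kb 63.1% and 63.0%. The rule selects regions by nearness to a gene end, where 14.2% of DE only and 10.6% of PS and DE regions lay. The tests of DE only neighbours therefore cannot separate a link between the lists from shared position at gene ends. Another PS and DE region lay within 5 kb of 14% of the gene-end regions and 16.7% of the others (ratio 0.840, adjusted Fisher's exact p = 0.145), and within 20 kb of 25.2% and 30.02% (ratio 0.841, adjusted Fisher's exact p = 0.0191). The nearest DE only neighbours were 74 bp from the Chchd7 region, 76 bp from those of Pim1 and F8a, 105 bp from that of Atp6v1g1 and 118 bp from that of Slc18a1.

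Promoters at PS and DE regions held the OTX2 letters more often than promoters at DE only regions. A RefSeq promoter (300 bases) whose start lay within 1 kb of the midpoint was found for 462 genes at PS and DE regions and for 3092 genes at DE only regions alone. TAATCC or GGATTA occurred in 42 of the 462 (9.09%, 6.8 to 12.1) and in 167 of the 3092 (5.40%, 4.66 to 6.25), the ratio being 1.68 (adjusted Fisher's exact p = 0.00994). The 462 include promoters that also lay at a DE only region. With those left out, the letters were in 34 of 395 (8.61%), the ratio being 1.59 (adjusted Fisher's exact p = 0.0359). Over all 17492 protein-coding genes with a promoter in the table, 6.60% held TAATCC or GGATTA. Restricted to promoter bases that a region itself covered (at least 50), a setting added later, 19 of 281 stretches at PS and DE regions (6.76%) and 72 of 2214 at DE only regions (3.25%) held it, the ratio being 2.08 (adjusted Fisher's exact p = 0.0143). The median stretch was 103 bases for PS and DE and 122 bases for DE only, and the sites per kb were 0.669 for PS and DE and 0.279 for DE only. At PS only regions 3 of 45 stretches (6.67%, 2.29 to 17.9) held the letters, at 0.636 sites per kb, close to the PS and DE values. The GATA letters AGATAA were in 3.91% of covered stretches for PS and DE and 1.81% for DE only. For the forkhead letters TGTTTAC the shares were 2.14% and 1.04%. CCAAT and the YY1 letters were slightly higher for PS and DE too, and the T-box, TCF/LEF, ETS and GC box letters lower. A higher share in covered stretches was thus not particular to the OTX2 letters, and these other motifs were not tested.

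**Figure D5:**
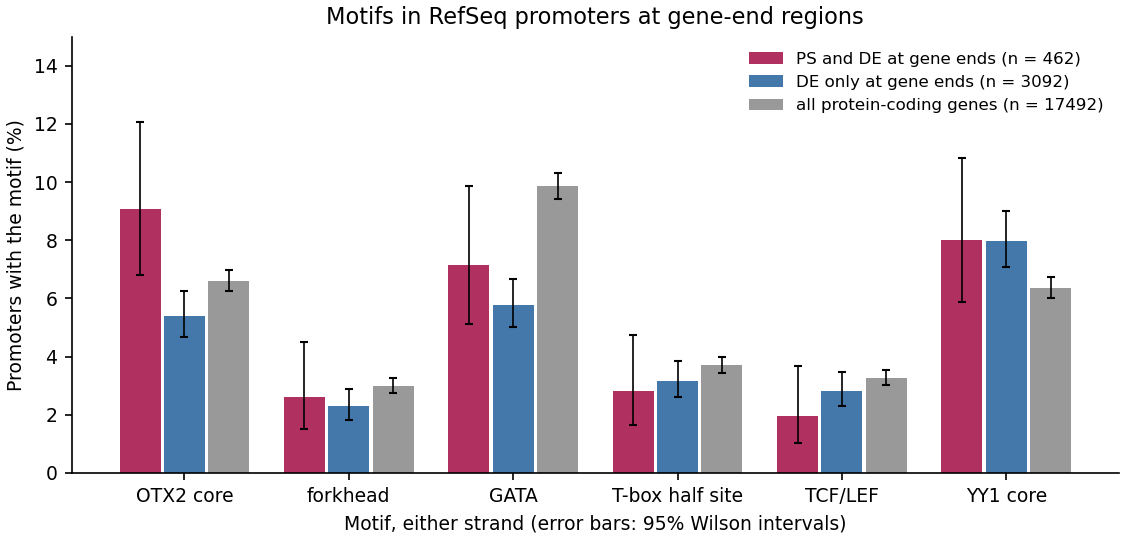
Percentage of 300-base RefSeq promoters holding each motif on either strand, at PS and DE gene-end regions (red, n = 462), at DE only gene-end regions (blue, n = 3092) and over all protein-coding genes (grey, n = 17492), with 95% Wilson intervals. The OTX2 letters are at 9.09%, 5.40% and 6.60%, and for the other 5 motifs shown the red and blue intervals overlap.

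Base composition differed slightly between these sets, and the letters were counted within GC classes in settings added after the data were seen. The median GC content was 60.3% in promoters at PS and DE regions, 61.7% in those at DE only regions and 56.3% over all protein-coding genes, and the median number of CpG was 21, 22 and 13 in the same 3 sets. Among promoters of at least 60% G and C the OTX2 share was 6.91% at PS and DE regions and 3.38% at DE only regions (ratio 2.04, adjusted Fisher's exact p = 0.0272). Among promoters under 60% it was 11.6% and 8.34% (ratio 1.39, adjusted Fisher's exact p = 0.211). Against promoters at PS only regions, of which 6 of 83 (7.23%) held the letters, the ratio was 1.26 (adjusted Fisher's exact p = 0.807), and among regions of at least 150 bp the ratio to DE only was 1.51 (adjusted Fisher's exact p = 0.543).

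The other motifs searched in the same promoters are given without a test. Each was searched on both strands. The forkhead letters TGTTTAC were in 2.60% of promoters at PS and DE regions and 2.30% at DE only regions, the GATA letters AGATAA in 7.14% and 5.79%, the T-box letters TCACACC in 2.81% and 3.17%, and the TCF/LEF letters CTTTGAT in 1.95% and 2.81%. Over all genes these 4 were in 3.00%, 9.86%, 3.69% and 3.28% of promoters. The GC box GGGCGG was in 68.8% at PS and DE regions, 69.5% at DE only regions and 45.9% over all genes, and the ETS letters CCGGAAG in 16.7%, 20.3% and 11.8%. The CCAAT box (CCAAT) was in 50.2% at PS and DE regions, 44.0% at DE only regions and 39.0% over all genes. The YY1 letters AAGATGG were in 8.01%, 7.99% and 6.35% in the same order. None of these motifs contains TAATCC.

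The regions were spread over all autosomes and the X chromosome. They made up 6.90% (chromosome 5) to 15.6% (chromosome 7) of the PS and DE regions of a chromosome, and there were 1.45 (X) to 3.91 (chromosome 18) per 100 protein-coding genes. An end of a long non-coding RNA gene also lay within 1 kb of 66 of the 650 regions (10.2%), against 11.2% of the DE only gene-end regions. A microRNA gene lay that close to 2 of them, Mir1938 near Ifrd1 and Mir1945 near Gspt1. The members closest to the limit of 1 kb were at Arhgap21 (983.5 bp), Tnrc6c (991.5 bp) and Triml2 (995 bp), and the closest regions outside it were at Slco4c1 (1004 bp), Sdk1 (1007.5 bp) and Tnks2 (1012 bp).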

How the data were processed

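CUT&RUN libraries are described in the labels, and the authors deposited 4 region lists with chromosome, start and end only. They cover PS and DE, DE alone, PS alone, and EPI and PS, and not the other combinations of these stages. Per the submitters' processing notes, the build was mm10. These notes also name MACS2 2.2.6, a peak caller, bedtools 2.30 for interval work, the aligner Bowtie2 2.3.5.1, and SAMtools 1.14 with Picard 2.26.10. How peaks were thresholded, IgG was used and libraries or stages were merged is not stated in these sources.

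Starts were converted to count from 1. Genes, strands and promoters came from RefSeq tables of GRCm38.p6. Strand was known for 17492 of 21887 protein-coding genes (79.9%), for 81.8% of the PS and DE regions at gene ends and for 80.7% of those in DE only. No genome sequence was used, so letters outside promoters were not read. A region was assigned to its nearest gene end, and a gene was counted where an end lay within 1 kb of a midpoint. Neighbours were measured edge to edge. Shares were compared by Fisher's exact test, two-sided, with Benjamini-Hochberg adjustment over 7 comparisons and a threshold of 0.05. For each alternative setting, its p-values replaced the main ones among the 7 before adjustment. The adjusted values of alternative settings therefore do not account for the number of settings tried. Intervals are 95% Wilson intervals and cover counting error only.

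Genes named are, by rule, the up to 10 genes with the most regions (at least 2), every listed gene with a region (up to 8 per list), the 5 widest regions, the 5 closest to a start, the 5 with the closest region of another list, 3 on each side of the 1 kb limit, and up to 3 per family. Gin1, Ppip5k2, Aimp2, Gtf2ird1 and the other genes with TAATCC were picked after their values were seen. Some genes that these rules name are not reported here. Members, lists and motifs were chosen with earlier results of these data known. Assignment and neighbour distances matched a direct search at 2000 positions with 0 mismatches. The share tests were also run on simulated counts drawn independently, which does not cover the dependence between neighbouring regions. Python 3.11.15, SciPy 1.17.1 and pandas 2.3.3 were used.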

Additional observations from a re-analysis of the deposited data

How the results depend on the processing

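Of the 7 comparisons, the width result kept its direction and passed 0.05 under all 7 of its alternatives (ratios 0.412 to 0.574), and the promoter letters kept their direction under all 10 (1.26 to 2.08) and passed under 7. The in-gene result kept its direction under all 8 and passed under 3. With a 500 bp window the in-gene ratio was 0.870, the paired-end ratio 0.933 and the ratio for DE only neighbours 0.887. With 2.5 kb there were 991 regions at 1070 genes, and the ratios were 1.01 (gene start), 0.932 (in-gene), 0.876 (paired ends), 1.12 (DE only neighbours, adjusted Fisher's exact p = 0.0426) and 1.06 (same-list neighbours). With regions of at least 150 bp there were 141 regions at 154 genes, and the ratios were 0.862 (gene start), 0.876 (in-gene), 0.874 (paired ends), 0.620 (DE only neighbours), 1.17 (same-list neighbours) and 1.51 (letters). The smaller number of regions comes from the setting itself. The DE only neighbour ratio was 1.27 within 1 kb, and the same-list ratio 0.841 within 20 kb. Against PS only the in-gene ratio was 0.997 and that of the letters 1.26. Of the 5 settings added after seeing the data, 2 lost a call, the letters in promoters under 60% G and C (1.39) and the in-gene share at starts only (0.856). The cause of these changes was not tested. The definitive endoderm list had 4 to 9 genes with a region under 5 alternatives, the WNT list 0 to 7, the streak list 2 to 7 and the anterior list 2 to 7. The motif alternative on 200 bp around the midpoint was not run, since no genome was used, nor was the gene start share against PS only, where strand was known for 74.8% of regions. No paired analysis was possible because the lists hold no value per library, and for the same reason no replicate could be left out. Depth per library is unknown.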

Other observations

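Genes of cholesterol synthesis had PS and DE and DE only regions at their ends, each in a larger share than all genes did. This list, like the next 3, was written after the 710 genes were seen, so it has no test, and its counts are descriptions. Of 19 enzymes of the pathway, 5 (26.3%) had such a region, against 3.24% of all protein-coding genes. Among them were Hmgcs1, which makes HMG-CoA (region centred 47.5 bp before the start), Sc5d (17.5 bp before it), Msmo1 (78 bp before it) and Ebp (555.5 bp inside from the start). The regions were 94 bp wide at Hmgcs1, 106 bp at Sc5d, 67 bp at Msmo1 and 162 bp at Ebp. A DE only region lay at an end of 9 of the 19 (47.4%), against 20.9% of all protein-coding genes.

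Of 20 genes of retinoic acid metabolism and its receptors, 4 (20.0%) had a PS and DE region at an end, and 2 a DE only region. These were Rdh1 (0.5 bp from the start), the receptor gene Rxrg (141 bp inside), the binding protein gene Crabp2 (229.5 bp outside the gene) and the reductase gene Dhrs3 (254.5 bp inside). Of 14 circadian clock genes, 3 (21.4%) had one, the repressor genes Cry2 (68.5 bp before the start), Per3 (193.5 bp before it) and Per2 (381.5 bp outside the gene), and 2 others had a DE only region. Of 5 secreted frizzled-related protein genes, Frzb and Sfrp2 had one. The Sfrp2 region was centred 490.5 bp inside the gene span, and 52 to 109 bases before a RefSeq start within it.

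The letters TAAT or ATTA, a core chosen after the sequences were seen, were in 86 of 281 promoter stretches covered by PS and DE regions (30.6%) and in 402 of 2214 covered by DE only regions (18.2%), at 3.70 and 1.83 sites per kb. In PS only they were in 11 of 45 (24.4%, 95% Wilson interval 14.2 to 38.7), at 4.45 sites per kb. In whole promoters the shares were 48.7% at PS and DE regions, 41.4% at DE only regions, 55.4% at PS only regions and 52.7% over all protein-coding genes. No test was run on these shares.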
